A study of Mus musculus with 2 samples.

Results

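The genes that build the mitotic spindle, attach chromosomes to it and divide the cell were followed as a set of 40 genes in organoids of mouse esophagus and stomach. The members were a fixed list of names, kept where the matrix of transcript counts held at least 10 unique molecular identifiers (UMIs, each standing for 1 captured transcript) over all barcodes. All 40 of the 40 listed genes passed, from 390 UMIs for Nuf2 to 9240 for Ube2c, out of 32285 genes in the matrix and 13518 that reached the same minimum. The rule used no difference between the tissues, but the list was chosen with earlier results of these data known. None of the 40 genes served to call a cell squamous or columnar.

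The study grew untreated 3D epithelial organoids from mouse esophagus and from mouse stomach corpus, tagged the dissociated cells of each tissue with a DNA barcode (MULTI-seq) and sequenced them in 1 pool from the 3′ ends of their transcripts. Each of the 2 groups was 1 sample that combined the cells of several mice, so the differences have no replicate check and no p-values stand here. By the methods of the study, the stomach medium held conditioned medium with WNT3A and R-spondin1 and also gastrin, whereas the esophageal medium held forskolin and no added WNT, so tissue and medium cannot be told apart. Every interval is an exact 95% interval that covers counting error only.

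The comparison used 702 squamous esophageal cells (18456220 UMIs, median 23460 per cell) and 46 columnar stomach cells (2469229 UMIs, median 59575.5 per cell). They were left after the limits of the study (over 100 and under 8500 genes, 80000 UMIs or less, and no more than 20% of UMIs mitochondrial), and after a call from 6 keratins. The limits on UMIs and genes removed 41 of 87 columnar stomach cells (47.1%) but 22 of 724 squamous esophageal cells (3.04%), and values with no such limit therefore stand beside the main ones. In its tissue data the study used these limits to leave out potential doublets, so values with no limit may include doublets. Since the call used their keratins, the marker levels that follow are no separate check of the labels except for Trp63, Muc1, Cldn18 and Gata4. The 5 squamous markers (Krt5, Krt14, Krt6a, Krt13 and Trp63) summed to 13412 UMIs per 1000000 UMIs (CPM) in the esophageal and 197 CPM in the stomach cells, and the 5 columnar markers (Krt8, Krt18, Muc1, Cldn18 and Gata4) to 107 and 5441 CPM. Of 13 fibroblast, immune and endothelial markers, the defining genes Col1a2, Col3a1, Dcn, Lum, Cd3e, Csf1r, Cdh5 and Kdr were at 0 in both groups, and the summed fibroblast level was 0.0542 CPM in the squamous cells and 0 in the columnar ones. The immune list, at 30.4 and 67.2 CPM, rested on Cd68 in the esophagus and on Cd68 and Ptprc in the stomach, and the endothelial list stood at 0.325 and 0.405 CPM.

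A cell that enters mitosis condenses its chromosomes, builds a spindle of microtubules between 2 poles and fastens each chromosome to it at the kinetochore, a protein plate on the centromere. A checkpoint holds the cell until every kinetochore is attached, after which a ubiquitin ligase, the anaphase-promoting complex, destroys the proteins that hold the sister chromatids together and the cell is cleaved. Most of the genes involved are transcribed from late S phase to mitosis and are nearly silent in resting cells, and in stratified and gastric epithelium they mark the dividing progenitors. Many of their promoters are known to carry a cell cycle homology region (CHR), a short element through which the genes are repressed in resting cells, together with boxes bound by the factor NF-Y.

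Promoters of most members held these elements. RefSeq promoter windows on build GRCm38.p6, each 300 bases long and starting 250 bases before the gene start, were found for 35 of the 40 members and not for Aurkb, Incenp, Kif20a, Tpx2 and Smc4. The CHR core, spelled TTTGAA and searched on both strands, lay in the windows of 28 of 35 members (80%), against 20.2% of the 27025 genes of the table and 14.2% of the 9814 of those that were measured in the compared cells. Its nearest copy lay within 50 bases of the start in 26 of those 28 members. The NF-Y box CCAAT, also on either strand, lay in 26 of 35 members (74.3%) against 41.1% of all genes, and both elements together in 24 (68.6%) against 8.97%. The CHR variant TTCGAA lay in Bub1, Bub1b and Top2a, which is 8.57% of the members against 1.80% of all genes. None of the 3 motifs contains another. The windows of 4 members follow, for the members of highest squamous CPM among those that hold the CHR core, from 150 bases before to 30 after the start, with every TTTGAA or its reverse complement TTCAAA and every CCAAT or its reverse complement ATTGG in capitals.
Ube2c (chr2:164769779-164769958, plus strand): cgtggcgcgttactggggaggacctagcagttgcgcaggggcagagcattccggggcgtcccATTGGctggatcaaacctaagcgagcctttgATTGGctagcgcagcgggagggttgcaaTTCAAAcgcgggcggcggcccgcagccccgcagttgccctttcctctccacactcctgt
Top2a (chr11:99024160-99024339, minus strand): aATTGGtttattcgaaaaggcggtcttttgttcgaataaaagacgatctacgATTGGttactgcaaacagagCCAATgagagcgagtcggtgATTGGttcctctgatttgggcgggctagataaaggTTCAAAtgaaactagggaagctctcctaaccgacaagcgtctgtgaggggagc
Mki67 (chr7:135716350-135716529, minus strand): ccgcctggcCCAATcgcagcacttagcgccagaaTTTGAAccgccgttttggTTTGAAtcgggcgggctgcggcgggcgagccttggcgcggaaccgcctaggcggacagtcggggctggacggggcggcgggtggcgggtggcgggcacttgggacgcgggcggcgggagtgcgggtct
Cenpa (chr5:30666736-30666915, plus strand): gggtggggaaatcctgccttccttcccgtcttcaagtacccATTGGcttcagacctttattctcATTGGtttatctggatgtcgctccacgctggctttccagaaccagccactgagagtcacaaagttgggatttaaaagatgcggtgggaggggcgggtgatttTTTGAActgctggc

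Ube2c held its CHR core at position -29 from the start, with NF-Y boxes at -88 and -57, and Cenpa held its core at 17 with boxes at -109 and -86. Top2a, whose shown stretch has its core at -23, carried boxes at -149, -98, -78 and -58, and Mki67 carried cores at -116 and -98. Among members with a window, Birc5, Bub1, Mad2l1, Cenpe, Nuf2, Knstrn and Nusap1 had no TTTGAA in it. These are matches of letters in a window of fixed length and say nothing about what binds there.

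**Figure D1:**
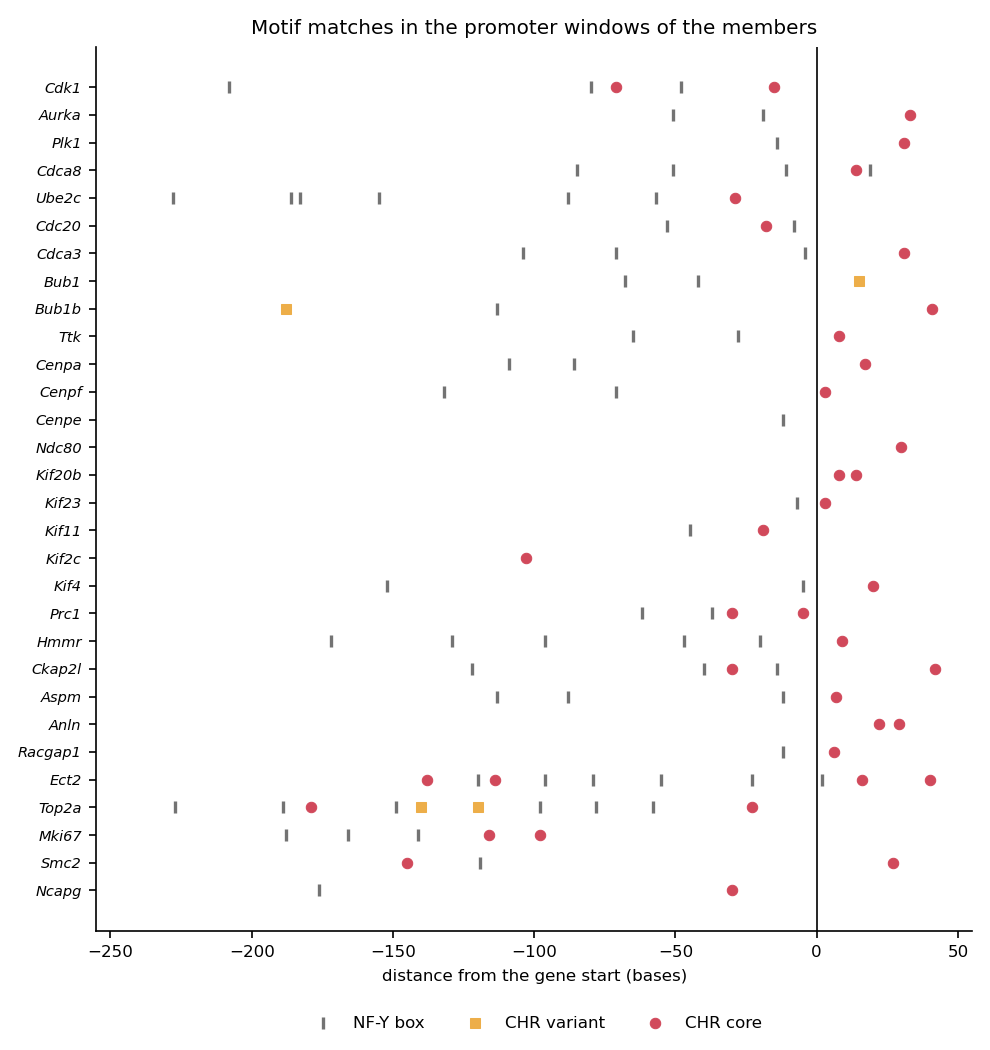
Position of motif matches (horizontal axis, bases from the gene start at 0) in the promoter windows of the members that hold at least 1 match (rows). Circles are CHR cores, squares the CHR variant and ticks NF-Y boxes. Ect2 and Prc1 have 2 start sites in RefSeq, drawn in the same row. Cores crowd within 50 bases of the start, and most boxes lie before it.

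The 40 genes were together much higher in the squamous esophageal than in the columnar stomach cells. Their summed level was 3152 CPM (3127 to 3178) in squamous cells, from 58178 UMIs, and 571 CPM (542 to 602) in columnar cells, from 1410 UMIs, a 5.52-fold difference (5.24 to 5.82). With no limit on UMIs and genes per cell, the sums were 3250 and 1267 CPM and the difference was 2.56-fold (2.51 to 2.62). Of the 9729 columnar member UMIs with no limit, 8432 lay in 16 cells, and 2 cells held 46.6% of those 8432. Each of the 40 members was higher in the esophagus in both settings. At least 2-fold higher there were 38 of 40 members, where 14.8% of 12717 measured genes were, and with no limit 30 of 40, where 15.2% of 13219 genes were. No member was at least 2-fold higher in the stomach, where 19.4% of all measured genes were, and 16.9% with no limit. The median log2 difference of the members was 2.59, or 1.28 with no limit, against -0.11 and -0.03 for all measured genes.

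**Figure D2:**
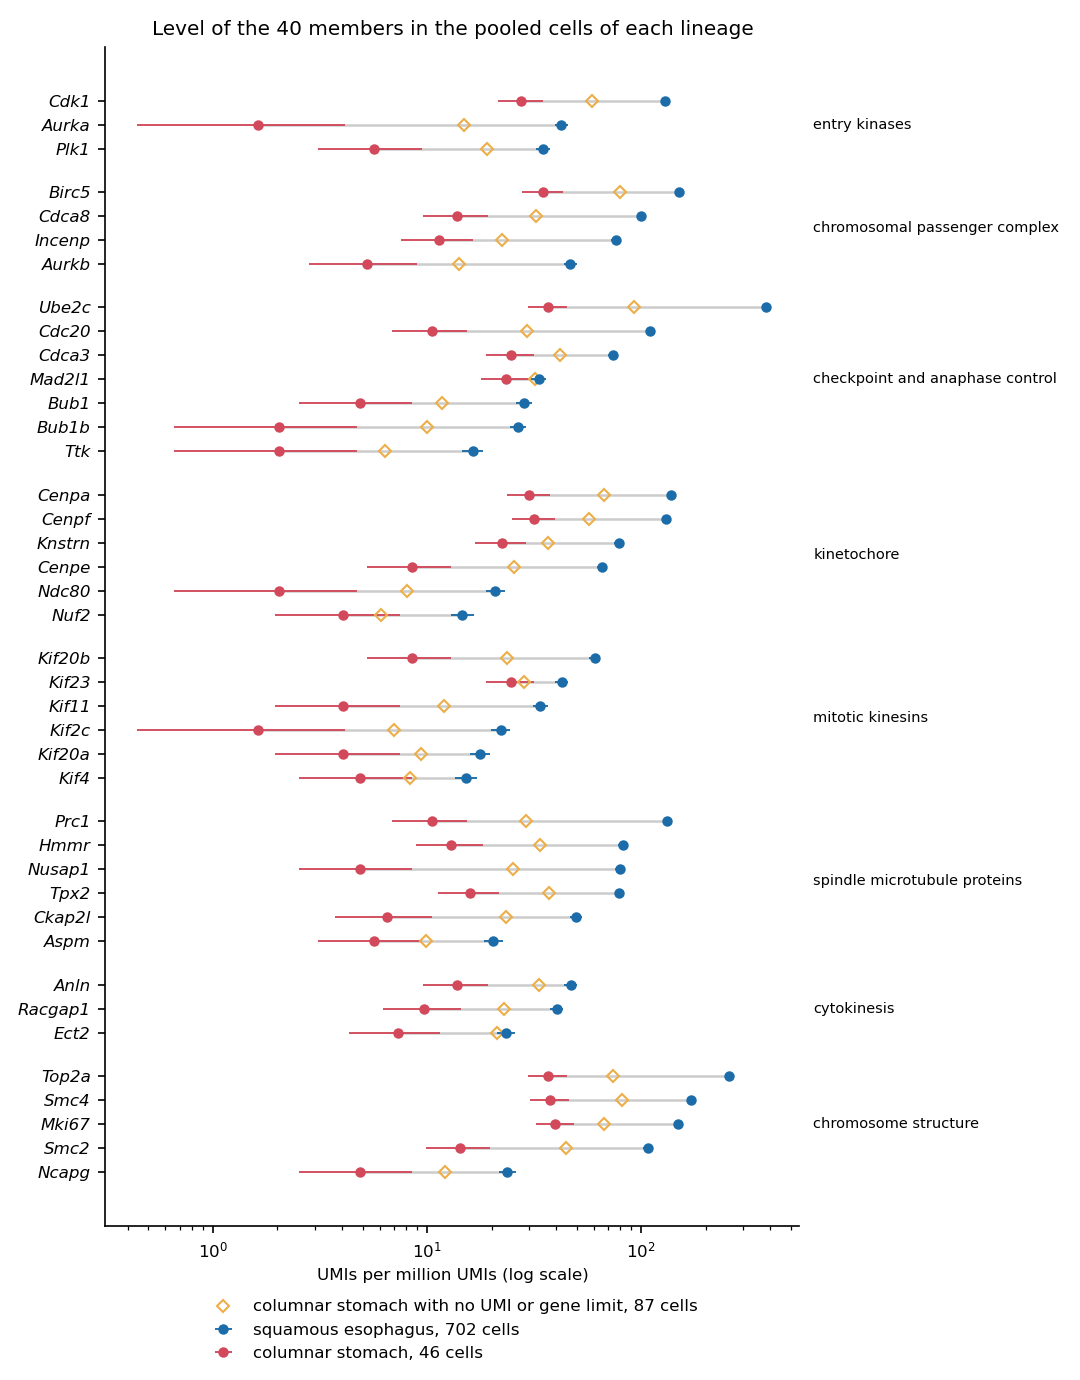
Level of each member in CPM (horizontal axis, log scale), grouped by role, in 702 squamous esophageal cells (blue), in 46 columnar stomach cells (red) and in 87 columnar stomach cells with no UMI or gene limit (open diamonds). Bars are exact 95% Poisson intervals for counting error. Every blue point lies to the right of its red point, and every diamond between them.

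Free RNA in the droplets can add transcripts to cells that do not make them, and no cell type in these libraries is known to lack mitotic transcripts. The 5 squamous markers stood in columnar stomach cells at 1.47% of their squamous level, a percentage that the keratin call itself limits, whereas the members stood there at 18.1%, or 39.0% with no limit on UMIs and genes. Barcodes under 2000 UMIs held the members at 2388 CPM. The part of free RNA in the difference between tissues was not tested.

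The 3 kinases that start mitosis were 4.71-fold to 26.1-fold higher in the esophagus. Cdk1, the kinase that drives entry with cyclin B, stood at 129.6 CPM in squamous and 27.5 CPM in columnar cells (4.71-fold, 3.70 to 6.08). Plk1, a kinase of centrosomes and kinetochores, stood at 34.9 and 5.67 CPM (6.15-fold, 3.64 to 11.3). Aurka, the spindle pole kinase, stood at 42.3 CPM against 1.62 CPM from 4 stomach UMIs (26.1-fold, 10.2 to 96.1), the largest ratio of the set. With no limit on UMIs and genes the same 3 ratios were 2.27, 1.93 and 3.02, so Aurka remained above the other kinases but by far less.

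The chromosomal passenger complex, which corrects faulty attachments and later moves to the midzone, stood at 372 CPM in squamous and 65.2 CPM in columnar cells over its 4 genes (5.71-fold, 4.88 to 6.72). Birc5, which encodes its subunit survivin, had 149.7 against 34.8 CPM (4.30-fold, 3.47 to 5.39). Cdca8, encoding borealin, had 99.6 against 13.8 CPM (7.23-fold, 5.16 to 10.5), and the scaffold Incenp had 76.3 against 11.3 CPM (6.73-fold, 4.63 to 10.2). The catalytic subunit Aurkb had 46.7 against 5.26 CPM (8.87-fold, 5.16 to 16.7). With no limit Birc5 came to 1.95-fold, and the other subunits lay between 3.15-fold and 3.50-fold.

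The ratios of the 7 checkpoint and anaphase genes ran from 1.41 to 13.1. Ube2c, the ubiquitin-conjugating enzyme of the anaphase-promoting complex, had 382 CPM against 36.9 CPM (10.4-fold, 8.42 to 12.9). Cdc20, the activator of that complex, had 109.7 against 10.5 CPM (10.4-fold, 7.09 to 15.99), and Bub1b, the checkpoint protein BubR1, had 26.6 CPM against 2.02 CPM from 5 stomach UMIs (13.1-fold, 5.59 to 40.6). Cdca3, a regulator of mitotic entry, had 74.1 and 24.7 CPM (3.00-fold, 2.32 to 3.94). Mad2l1, encoding the checkpoint protein Mad2, had 33.2 and 23.5 CPM (1.41-fold, 1.08 to 1.88), one of the 2 members under 2-fold. Among the remaining checkpoint kinases, Bub1 was 5.85-fold and Ttk 8.08-fold higher, the latter from 5 stomach UMIs. With no limit Ube2c and Cdc20 were 4.27-fold and 3.76-fold, Bub1b 2.77-fold, Ttk 2.68-fold and Bub1 2.55-fold higher. Cdca3, at 1.83-fold, was then under 2-fold, and Mad2l1 stood at 1.07-fold (0.925 to 1.24).

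Kinetochore genes summed to 449 and 98.4 CPM (4.56-fold, 4.01 to 5.20), and all 6 were at least 2-fold higher in the esophagus with and without the limit. Cenpa, the histone variant that marks the centromere, had 138 against 29.97 CPM (4.60-fold, 3.65 to 5.88). Cenpf, a large protein of the outer kinetochore, had 130.5 against 31.6 CPM (4.13-fold, 3.30 to 5.24), and Knstrn, which helps kinetochores hold microtubule ends, 79.0 against 22.3 CPM (3.55-fold, 2.71 to 4.73). Ndc80, whose protein grips the microtubule, had 20.8 CPM against 2.02 CPM from 5 stomach UMIs (10.3-fold, 4.36 to 31.8). Its partner Nuf2 was 3.61-fold and the kinetochore motor Cenpe 7.73-fold higher, and with no limit the 6 genes lay between 2.06-fold for Cenpa and 2.77-fold for Ndc80.

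Kinesins, the motors that slide or shorten spindle microtubules, summed to 191.9 and 47.8 CPM (4.02-fold, 3.34 to 4.87). Kif20b had 60.6 against 8.50 CPM (7.13-fold, 4.64 to 11.6), Kif11, which pushes the poles apart, 33.8 against 4.05 CPM (8.34-fold, 4.50 to 17.5), and Kif2c, which depolymerizes microtubule ends, 22.1 CPM against 1.62 CPM from 4 stomach UMIs (13.6-fold, 5.28 to 50.2). Kif23, a motor of the central spindle, stood apart with 42.6 against 24.7 CPM (1.72-fold, 1.33 to 2.28). Kif20a and the chromokinesin Kif4 were 4.36-fold and 3.13-fold higher. With no limit, Kif23, Kif20a and Kif4 were 1.55-fold, 1.96-fold and 1.92-fold higher and Kif20b, Kif11 and Kif2c 2.57-fold, 2.91-fold and 3.21-fold. The annotation holds a pseudogene Kif4-ps, so reads of Kif4 may be shared with it.

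Proteins that bundle and organize spindle microtubules had the highest pooled ratio of the 8 role groups (444 against 56.3 CPM, 7.88-fold, 6.66 to 9.39), and with no limit the checkpoint group was above them (3.09-fold against 2.90-fold). Nusap1 had 79.6 against 4.86 CPM (16.4-fold, 9.35 to 31.8) and Prc1, which cross-links the central spindle, 132.6 against 10.5 CPM (12.6-fold, 8.58 to 19.3). Hmmr had 82.4 against 13.0 CPM (6.355-fold, 4.48 to 9.32). Tpx2, the activator of Aurora A, was 5.01-fold, Ckap2l 7.65-fold and the pole protein Aspm 3.59-fold higher. With no limit Prc1 had the highest ratio of all members, at 4.69-fold (4.09 to 5.41), with Ube2c at 4.27-fold, Nusap1 at 3.30-fold and Hmmr at 2.55-fold.

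Cytokinesis genes were the group closest between the tissues. Ect2, the exchange factor that activates RhoA at the cleavage furrow, had 23.3 against 7.29 CPM (3.20-fold, 1.998 to 5.44). The furrow scaffold Anln had 46.8 against 13.8 CPM (3.40-fold, 2.41 to 4.94) and Racgap1, the partner of Kif23 in centralspindlin, 40.3 against 9.72 CPM (4.14-fold, 2.76 to 6.51). All 3 passed 2-fold with the limit, and none did without it, where the group came to 1.45-fold (1.32 to 1.59) and Ect2 to 1.12-fold (0.936 to 1.34).

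Genes of mitotic chromosome structure summed to 709 and 133 CPM (5.32-fold, 4.77 to 5.95). Top2a, the topoisomerase that untangles sister chromatids, had 258 against 36.9 CPM (7.001-fold, 5.69 to 8.71). Mki67, the protein coat of mitotic chromosomes and a common proliferation marker, had 148.8 against 39.7 CPM (3.75-fold, 3.07 to 4.64). The condensin subunits Smc4, Smc2 and Ncapg were 4.53-fold (3.69 to 5.63), 7.56-fold (5.42 to 10.9) and 4.88-fold (2.77 to 9.52) higher. All 5 stayed at least 2-fold higher with no limit, between 2.09-fold for Ncapg and 3.61-fold for Top2a.

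Few stomach cells stood behind these ratios. In 8 members the stomach level rested on at most 10 UMIs, and in 7 members 1 cell held at least 50% of the stomach UMIs, up to 57.1% for Aspm. In the esophagus the highest share of a member's UMIs in 1 cell was 5.05%. Reads counted for several members could also come from a gene that overlaps on the same strand, such as Incenp with AC132253.8. The sources used here do not say whether the counting used strand, so the same holds for Cdc20, Ube2c, Prc1, Nusap1 and Ncapg, which overlap Elovl1, Tnnc2, Rccd1, Oip5 and Lcorl on the opposite strand.

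To separate more cells with mitotic transcripts from more such transcripts per cell, every cell was thinned at random to 10000 UMIs, which left 433 squamous and 44 columnar cells. The 269 squamous cells too shallow for this held the members at 1749 CPM (1659 to 1844), below the 3152 CPM of all squamous cells compared. Only 2 columnar cells were too shallow. Values at equal depth thus describe the deeper squamous cells, beside nearly all columnar ones. Members were counted as present in a cell with at least 1 UMI, and a cell with at least 10 of the 40 present is called mitosis-high here, a range of a count and not a cell type. Of squamous cells, 181 of 433 were mitosis-high (41.8%, 37.1 to 46.6), and of columnar cells 6 of 44 (13.6%, 5.17 to 27.4). With no limit on UMIs and genes the shares were 195 of 455 (42.9%, 38.3 to 47.5) and 16 of 85 (18.8%, 11.2 to 28.8). The intervals cover the counting of cells in 1 library per tissue and not the spread between cultures.

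The squamous cells fell into a large group with few members and a broad one with many. At most 4 members were present in 213 cells (49.2%) and at least 20 in 127, while 28 cells had 8 to 11, next to the limit of 10. Among columnar cells, 37 of 44 (84.1%) had at most 4 members present and 1 had at least 20. Member UMIs per cell had a median of 6, a mean of 27.9 and a maximum of 169 in squamous cells, against 2, 5.48 and 42 in columnar cells. No UMI of any member was found in 30 squamous (6.93%) and 7 columnar cells (15.9%). With no limit on UMIs and genes, member UMIs per cell had medians of 8 and 2 and means of 28.7 and 8.32 in squamous and columnar cells.

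**Figure D3:**
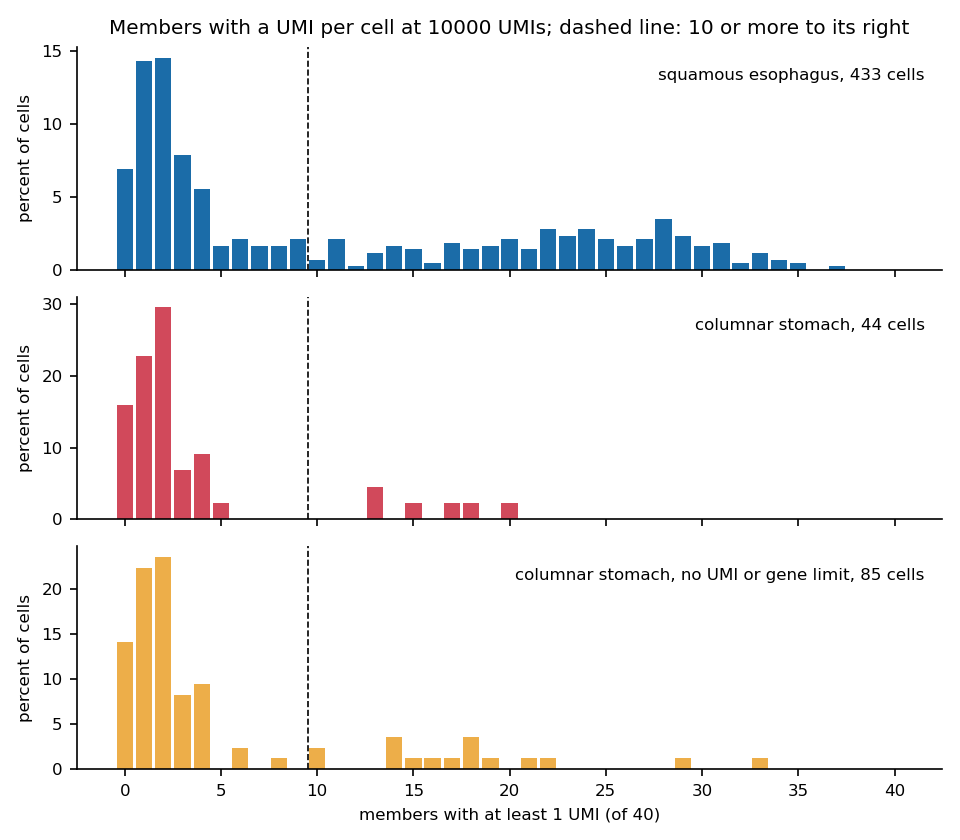
Percent of cells (vertical axis) by the number of the 40 members with at least 1 UMI (horizontal axis) after thinning to 10000 UMIs, in squamous esophageal cells (top), columnar stomach cells (middle) and columnar stomach cells with no UMI or gene limit (bottom). The dashed line separates the mitosis-high cells, 41.8%, 13.6% and 18.8% of cells. The vertical scales differ between panels.

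Both the share of cells and the content per cell were lower in the stomach. A mitosis-high squamous cell held a mean of 62.2 member UMIs (61.0 to 63.3), from 10 to 169, and a mitosis-high columnar cell 27.3 (23.3 to 31.9), from 16 to 42. With no limit the 16 columnar cells held 35.3 (32.5 to 38.3), from 15 to 101. The 2 fullest of these, with 101 and 92 member UMIs, came from cells of 132966 and 324846 UMIs, over the limit. The other cells held means of 3.30 and 2.03 member UMIs. Mitosis-high cells, which the members themselves define, carried 93.1% of all squamous and 68.0% of all columnar member UMIs. The 5 fullest columnar cells alone carried 61.4% of the columnar ones.

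Depth was higher in mitosis-high cells before thinning. Their median was 48808 UMIs against 35871 in the other squamous cells, and 66354.5 against 57788.5 in columnar cells. Among cells over the limit on UMIs or genes, 14 of 22 squamous (63.6%) and 10 of 41 columnar cells (24.4%) were mitosis-high. The median mitochondrial share was 3.89% in mitosis-high and 3.86% in other squamous cells, and 5.33% and 7.75% in columnar cells. The part of depth in the share of mitosis-high cells was not tested beyond the thinning.

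Within the squamous cells the members were found in largely the same cells. For each member, cells were divided by whether at least 10 of the other 39 were present. Birc5 had a UMI in 92.2% of the cells that were high for the others and in 9.06% of the rest, Mki67 in 86.7% and 9.88%, Ube2c in 85.5% and 11.4%, and Top2a in 83.1% and 18.04%. The spindle protein gene Hmmr had a UMI in 70.2% and 2.38%. The kinesin Kif4 and the kinetochore gene Nuf2, with few UMIs, were sparse even in high cells, at 24.9% and 29.3%. Among other cells Kif4 had a UMI in 0.397% and Nuf2 in 0 of 252, where 3 counts, the limit set for a count of 0, allow up to 1.19% of cells with a UMI at this depth.

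Smc4 and Knstrn were the members least confined to these cells. Smc4 had a UMI in 85.5% of high and 35.4% of other cells, and Knstrn in 68.3% and 22.5%. In 34 of 40 members at least 90% of the UMIs lay in high cells, where 1.18% of 10323 genes had as much in mitosis-high cells, which the members themselves define, and Smc4 had the lowest percentage, 79.2%. Over the 780 pairs of members, the Spearman correlation across the 433 cells had a median of 0.41, and within the 181 mitosis-high cells a median of 0.17. The closest pairs there were Ube2c with Nusap1 (0.63), Ube2c with Prc1 (0.62) and Nusap1 with Prc1 (0.62). The cells share 1 library and a depth of 10000 UMIs, and these correlations are descriptions.

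Mitosis-high cells differed among themselves in the members they favored, depending on how many replication transcripts they carried. The 181 cells were split at the median of the summed UMIs of 50 genes of DNA replication and the G1-S step, with a mean of 12.5 such UMIs in 91 cells and 45.2 in 90 cells. Summed member UMIs were 73.0 per cell with few and 51.3 with many replication transcripts (1.42-fold, 1.37 to 1.48). For 19 members the interval of the ratio lay above 1, as it did for 5.11% of 8751 genes with at least 10 UMIs in these cells. For 1 member, Top2a, it lay below 1, as for 6.62% of those genes, and for 20 it held 1.

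Anaphase regulators and most kinetochore genes were higher in the cells with few replication transcripts. Cenpf had a mean of 3.78 UMIs against 1.28 (2.96-fold, 2.39 to 3.69), Cdc20 3.37 against 1.18 (2.86-fold, 2.29 to 3.61), Cenpa 3.75 against 1.59 (2.36-fold, 1.93 to 2.89) and Ube2c 10.3 against 4.66 (2.21-fold, 1.97 to 2.48). Knstrn and Cenpe were 2.17-fold and 1.98-fold higher, so 4 of 6 kinetochore genes had intervals above 1. The microtubule-gripping pair Ndc80 and Nuf2 had ratios of 0.764 (0.474 to 1.22) and 0.668 (0.386 to 1.14).

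Chromosome structure genes had no such difference in that direction. Top2a had 4.63 UMIs with few and 5.53 with many replication transcripts (0.836-fold, 0.733 to 0.954). Mki67 stood at 0.914-fold (0.772 to 1.08), Smc2 at 0.824-fold (0.662 to 1.03) and Ncapg at 0.626-fold (0.386 to 1.00). Smc4 lay on the other side of 1, at 1.13-fold (0.948 to 1.34), and of the 5 only Top2a had an interval that left out 1. Over the 5 genes the ratio was 0.901 (0.832 to 0.977), against 2.14 (1.92 to 2.38) over the 6 kinetochore genes and 1.95 (1.79 to 2.12) over the 7 checkpoint and anaphase genes. In that last group 3 of 7 intervals lay above 1, those of Ube2c, Cdc20 and Cdca3, while Ttk, Mad2l1 and Bub1 had ratios of 0.659, 0.876 and 0.969 with intervals that held 1.

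**Figure D4:**
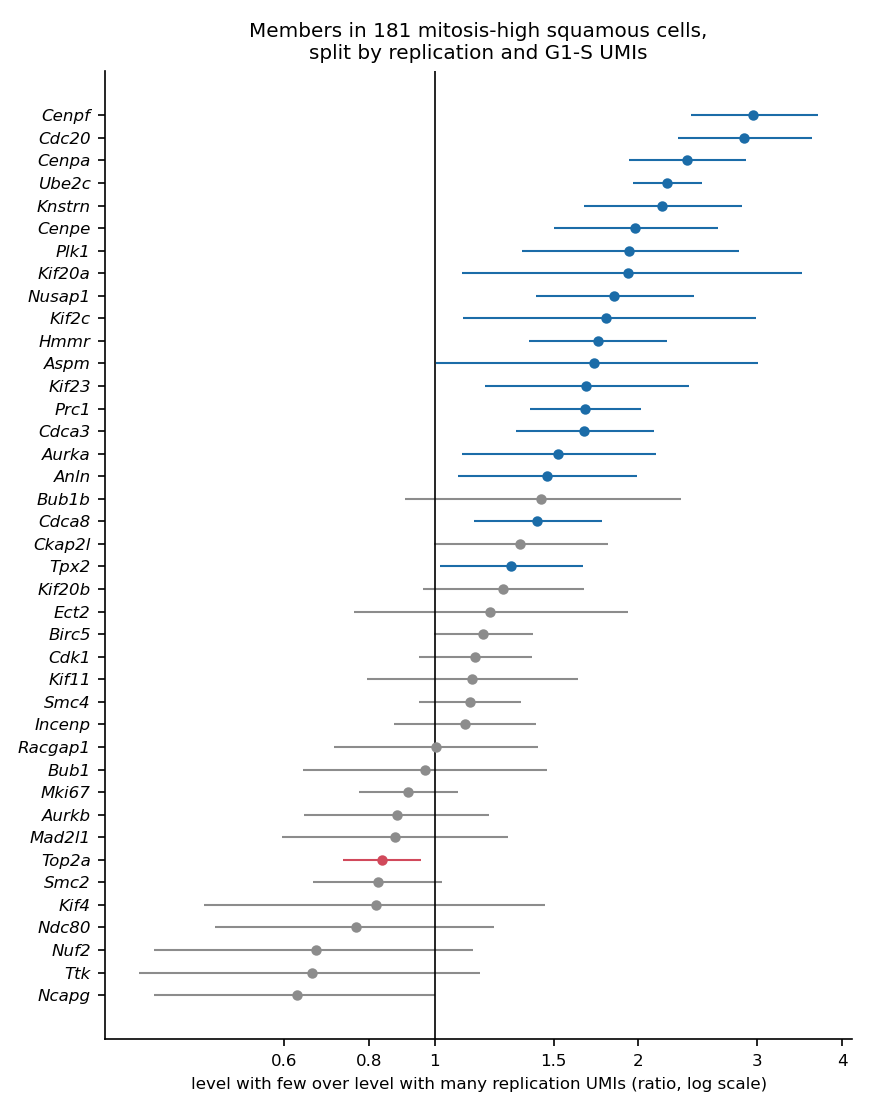
Ratio of each member's level in the 91 mitosis-high squamous cells with few UMIs of replication and G1-S genes to its level in the 90 cells with many (horizontal axis, log scale), at 10000 UMIs per cell. Bars are exact 95% intervals for counting error. Blue members have intervals above 1 (19 genes), the red one, Top2a, an interval below 1, and grey ones hold 1. Cenpf and Cdc20 lie furthest to the right.

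Cells with mitotic and cells with replication transcripts overlapped only in part. With the same limit of 10 genes for the replication list, 135 of 433 squamous cells (31.2%) were high for both, 46 (10.6%) for the mitotic set alone, 64 (14.8%) for replication alone and 188 (43.4%) for neither. Cells high for replication alone held a mean of 6.67 member UMIs against 2.15 in cells high for neither. In the stomach 3 cells were high for both, 3 for the mitotic set alone, 1 for replication alone and 37 for neither.

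Along squamous differentiation, at the score and depth used here, the members were highest in the middle and lowest at the differentiated end. The 433 squamous cells were put in 5 ranks of 86 or 87 cells by the mean log2(UMI + 1) of differentiated minus basal squamous genes, lists that hold no member. From the basal to the differentiated end, the mean member UMIs per cell were 27.3, 29.2, 41.1, 29.5 and 12.4. The share of mitosis-high cells was 34.5% (24.6 to 45.4), 42.5%, 64.0% (52.9 to 74.0), 52.9% and 15.1% (8.30 to 24.5). Median depth before thinning was 38531, 38771, 43988.5, 40097 and 36748 UMIs, so the third rank was also the deepest and the last the shallowest. The part of depth in this course was not tested beyond the thinning.

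The single members followed this course closely. In 33 of 40 members the third rank had the highest mean, in 5 the second and in 2 the fourth, where 23.5% of 10323 genes with at least 10 UMIs in these cells were highest in the third. At least 2-fold higher in the first than in the last rank were 28 of 40 members, where 20.9% of those genes were. Top2a had means of 2.08, 2.56, 3.81, 2.26 and 0.616 UMIs from the first to the last rank. Ube2c had 2.32, 3.34, 4.84, 3.83 and 1.69, a lower ratio of first to last (1.38, 1.11 to 1.72) than that of Top2a (3.38, 2.47 to 4.68). Cdc20 and Plk1 peaked in the fourth rank, at 1.38 and 0.448 UMIs, and Ect2 had 0.0465 UMIs in the last against 0.264 in the first. The replication genes reached means of 26.7 UMIs in the third and 4.60 in the last rank. Which rank was highest depended on the score: thinned to 5000 UMIs it was the second, and with basal genes alone the fourth, while the first rank stayed above the last under each score tried.

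**Figure D5:**
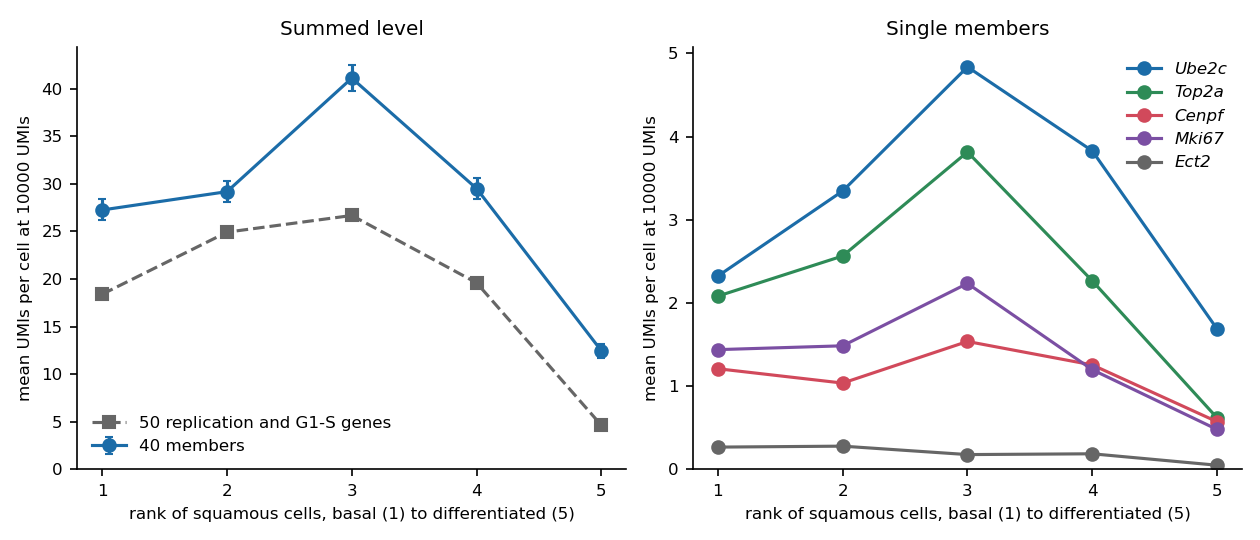
Mean UMIs per cell at 10000 UMIs (vertical axes, different scales) in 5 ranks of squamous cells from basal to differentiated (horizontal axes). Left, the sum of the 40 members with exact 95% Poisson intervals and the sum of 50 replication and G1-S genes, with no interval drawn. Right, 5 single members. The summed members peak at 41.1 UMIs in the third rank and fall to 12.4 in the fifth.

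No order could be read along the gastric axis. In 2 ranks of 22 columnar cells from stem and gland genes to pit genes, the mean member UMIs were 4.82 (3.94 to 5.83) and 6.14 (5.14 to 7.26), with 2 and 4 mitosis-high cells. With no limit on UMIs and genes the order turned, at 10.3 and 6.33 UMIs in ranks of 43 and 42 cells. It also turned when stem genes alone (1.41 for first over last) or pit genes alone (1.15) made the score.

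With no limit on the columnar cells, the mix of members in mitosis-high cells differed between the tissues more for some roles than for others. At full depth there were 53396 member UMIs in 181 squamous cells within the limit and 8432 in 16 columnar cells with no limit. Checkpoint and anaphase genes made up 21.7% in the esophagus and 16.7% in the stomach (ratio 1.30, 1.23 to 1.37). Cytokinesis genes made up 3.50% and 6.20% (ratio 0.565, 0.512 to 0.623). Ube2c alone took 12.5% of the squamous and 6.89% of the columnar member UMIs, and Prc1 4.27% and 2.47%. Ect2 took 0.721% and 1.79%, and Mad2l1 0.978% and 1.98%. Chromosome structure genes had 21.8% and 21.3%. The columnar shares rest on 16 cells, 10 of them over the limit on UMIs or genes, and 2 cells held 46.6% of their member UMIs.

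Among 2491 genes with at least 200 UMIs that were not members, those that varied most like the summed members across 433 thinned squamous cells, by Pearson correlation of log2(UMI + 1), were the chromatin protein genes Hmgb2 (0.85) and Hmgb1 (0.69), the microtubule regulator Stmn1 (0.77) and the tubulins Tubb5 (0.73) and Tuba1b (0.66). The cyclin-dependent kinase adaptors Cks2 and Cks1b (both 0.73), Ube2s, which extends ubiquitin chains for the anaphase-promoting complex (0.67), and Pclaf, a partner of the replication clamp (0.67), were also among the 12. Ptma, Nucks1 and the histone variant H2afz completed them. Hmgb2 had a mean of 19.2 UMIs in mitosis-high and 3.13 in other squamous cells, and Pclaf 3.56 and 0.214.

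The lists of other mitosis genes and of replication and G1-S genes were apart between the tissues in the same direction, but less so. Of 63 other mitosis genes, 53 were at least 2-fold higher in the esophagus and 1 in the stomach (median log2 1.96), and with no limit 33 and 1 (median 1.05). Of all measured genes, 14.8% and 19.4% were, or 15.2% and 16.9% with no limit. Kif15, a spindle kinesin, had 35.8 against 2.02 CPM (17.7-fold, 7.53 to 54.6), the kinetochore scaffold Knl1 53.6 against 4.05 CPM (13.2-fold, 7.17 to 27.7) and Pimreg 21.8 against 2.02 CPM (10.8-fold, 4.57 to 33.3). Fam83d, which recruits a kinase to the spindle, had 344 UMIs in squamous and 1 in columnar cells (46.02-fold, 8.21 to 1823). With no limit these 4 ratios fell to 4.75, 3.92, 3.13 and, for Fam83d, 5.04.

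Of 50 replication and G1-S genes, 27 were at least 2-fold higher in squamous and none in columnar cells (median log2 1.31). Of all measured genes, 14.8% and 19.4% were. With no limit on UMIs and genes only 5 were at least 2-fold higher in squamous cells (median 0.31), a smaller share than the 15.2% of all measured genes. Pola1, of the primase complex, was 17.6-fold higher (6.83 to 64.8) from 4 stomach UMIs, the checkpoint adaptor Clspn 7.43-fold (4.01 to 15.6), the polymerase subunit Pole2 4.96-fold (2.93 to 9.14) and Tk1, the thymidine kinase, 4.34-fold (3.22 to 5.999). With no limit these came to 2.59-fold, 2.10-fold, 2.93-fold and 2.24-fold. Of 21 genes of cell cycle exit and arrest, 4 were at least 2-fold higher in squamous and 7 in columnar cells, or 4 and 5 with no limit. Their median log2 difference was -0.49, or -0.05 with no limit. All measured genes had 14.8% and 19.4% at least 2-fold higher in squamous and columnar cells, or 15.2% and 16.9% with no limit. The inhibitors Cdkn1c and Cdkn2a were 5.28-fold (3.45 to 8.02) and 4.86-fold (4.28 to 5.52) higher in the stomach and Tob1 3.59-fold (3.07 to 4.20), while the pocket protein gene Rbl1 was 6.23-fold (3.25 to 13.7) higher in the esophagus. With no limit Rbl1 was 2.86-fold higher there, and the ratio of esophagus to stomach was 0.399 for Cdkn1c (0.189 with the limit), 0.192 for Cdkn2a and 0.356 for Tob1. Early response genes that cell dissociation can induce summed to 1687 CPM in squamous and 2351 CPM in columnar cells, and to 1691 and 1673 CPM with no limit.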

How the data were processed

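The deposited matrix holds UMI counts per gene and barcode that the authors made with Cell Ranger (version 3.1.0, mouse build mm10, per the submitters' processing notes) from 10x 3′ libraries, and the deposited tag counts of each barcode. The authors assigned barcodes to the 2 organoids with deMULTIplex, and that table gave each cell its group. No column of another sample was present (0).

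The filters were those the methods give for tissue cells. Applied to the organoids, they left the cell counts that the study gives for them (765 and 90). A cell with at least 5 keratin UMIs was called squamous where Krt5, Krt14, Krt6a and Krt13 made up at least 0.75 of them beside Krt8 and Krt18, and columnar where they made up at most 0.25. UMIs were summed per group and divided by the group total. Intervals are Poisson for levels, conditional binomial for ratios and Clopper-Pearson for shares, at 95%, and a group with no UMI was set to a floor of 3 UMIs. With 1 sample per group no test was run. Genes with at least 10 UMIs in the compared cells were measured genes. Cells were thinned without replacement (seed 1), leaving out 269 squamous and 2 columnar cells under 10000 UMIs. The scripts were tested on simulated data. Doublets were left in, since Scrublet marked 5 of 855 barcodes within the limits (0.585%), 2 of them squamous and 0 columnar among the cells compared. Cells over the limit on UMIs or genes were not scored. Whether the cells that enter only with no limit are doublets was not tested. The share of tag counts from a cell's own tag had a median of 84.1% in squamous and 82.5% in columnar cells, and of 86.9% and 78.0% in their mitosis-high cells.

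Named members were the 3 of highest esophageal CPM in each role and the 8 of largest fold, and the other members are given more briefly. Named genes of other lists were the 4 of largest change at or above 10 CPM. Members and lists were chosen with earlier results of these data known. Promoters came from RefSeq (GRCm38.p6), and overlaps from GENCODE on GRCm38. Python 3.11.15, numpy 2.4.6, scipy 1.17.1, pandas 2.3.3, scanpy 1.11.5, R 4.3.3 and edgeR 4.0.16 (TMM factors only) were used.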

Additional observations from a re-analysis of the deposited data

Results flagged for a closer look

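Barcodes that entered no comparison also held member UMIs, above the limit that a count of 0 allows. The summed level was 4066 CPM in the 22 squamous esophageal cells over the limit on UMIs or genes and 1597 CPM in the 41 columnar stomach cells over it, against 3152 and 571 CPM in the cells compared. The 24 columnar barcodes under the esophageal tag stood at 838 CPM, between the columnar stomach and the squamous esophageal cells. The 21 squamous barcodes under the stomach tag stood at 2482 CPM (1898 to 3188), from 61 UMIs and a median depth of 747 UMIs. The 52 barcodes with mixed keratins stood at 1125 CPM, with a median depth of 1070.5 UMIs. The 170 barcodes over 20% mitochondrial UMIs stood at 2157 CPM. What these barcodes are was not tested.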

How the results depend on the processing

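The summed members stayed higher in the esophagus under each alternative, and the limit on UMIs and genes moved the size most. Against 5.52-fold, the difference was 2.56-fold with no such limit, 2.60 with no filter, 6.15 at a mitochondrial limit of 10%, 5.06 with no keratin call and 5.23 with one at 0.9 and 0.1. It was 4.94 with equal weight per cell, 5.10 after thinning, 6.29 with TMM factors and 6.45 without the fullest cell of each group. The median log2 difference, 2.59, was 1.28 with no limit, 1.30 with no filter, 2.78 at 10% mitochondrial, 2.47 with equal weight, 2.37 thinned, 2.77 with TMM and 2.83 without those cells. With no limit, 33 of 63 other mitosis genes and 5 of 50 replication genes were at least 2-fold higher, where 15.2% of all measured genes were. The share of mitosis-high squamous cells was 34.2% at 5000 UMIs, 49.6% at 20000, 50.8% with at least 5 members and 36.0% with at least 15. First over last squamous rank, 2.19, was 1.65 with basal genes alone, 3.48 with differentiated genes alone and 2.37 with another seed. The highest rank was 2 at 5000 UMIs and 4 with basal genes alone. The gastric ratio turned from 0.785 to 1.41 with stem genes alone and 1.15 with pit genes alone, and to 1.62 with no limit, an alternative chosen after seeing the data. Of 116 alternatives to these summary values, 86 stayed within the range set for each value, 27 moved beyond it and 3 reversed. That range was the counting interval for the summed ratio, the shares of cells and the rank ratios. For counts of genes it was a fixed factor, and for member UMIs per cell the standard deviation between cells. The median log2 difference took its range from the interval of the summed ratio, and the highest rank had to stay the same. Of 560 member ratios, 96 moved beyond their counting interval and none reversed. Both totals include the settings with at least 50 and with no minimum of UMIs for a measured gene. Every member passed both, so their member values repeat the main ones and could not move. No paired analysis was possible because each group was 1 sample and no test was run, and for the same reason no replicate could be left out. Stomach levels rest on 46 cells, and a member under 1.21 CPM there would be below the floor.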
